A study of Schizosaccharomyces pombe with 3 samples.

Results

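The genes described here carry the symbols of the coactivator complexes of RNA polymerase II in fission yeast, Schizosaccharomyces pombe: Mediator, TFIID and SAGA. They were chosen by symbol in the probe annotation of the array (med, taf, srb, spt, ada or sgf followed by a number, and tbp1, tra1, tra2 and ubp8). This gave 44 genes of the 2896 fission yeast genes measured, each with its own probe set. The measurement was the signal intensity of total RNA on 3 Affymetrix arrays, each hybridised with biotin-labelled RNA of wild type cells. These cells were h+ (the plus mating type) and carried 3 marker alleles, leu1-32, ade6-210 and ura4-DS/E, and they were kept in liquid YEA medium at 30 degrees. There was 1 group and no treated or mutant sample, so no condition could be compared with another. The labels do not say whether separate cultures lay behind the arrays, so the spread between them may be technical. In RNA of a whole culture, fewer cells with a transcript and less transcript per cell cannot be told apart.

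Mediator is a large complex that passes signals from DNA-bound activators to RNA polymerase II. It is built of head, middle and tail modules, and a separable kinase module can bind it and block its contact with the polymerase. TFIID, made of the TATA-binding protein and its associated factors (TAFs), recognises core promoters. SAGA acetylates and deubiquitylates histones and also delivers the TATA-binding protein, and it shares several TAFs with TFIID.

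The symbol rule also took in genes that belong to none of the 3 complexes. The platform symbol taf1 belongs to a gene whose current symbol is atg11, an autophagy gene, while the TFIID subunit now called taf1 stands on the array as taf111. The gene ada1 of fission yeast encodes AMP deaminase, and the counterpart of the SAGA subunit that budding yeast calls Ada1 is hfi1, which the rule missed. The product of tra2 is the scaffold of the NuA4 acetyltransferase, those of spt4, spt5, spt6 and spt16 act in transcription elongation, and that of spt2 is a histone chaperone. This left 13 Mediator genes, 8 genes of TFIID alone, 4 of TFIID and SAGA, 9 of SAGA alone and the 2 paralogous genes taf5 and taf73 (now taf51), whose division between TFIID and SAGA was not settled from the sources used here. The 44 genes are called by their platform symbols below, and other genes by their current symbols.

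All 44 genes gave signal above background. The background limit of an array was the 95th percentile of log2 signal over 2601 probe sets with budding yeast style symbols on the same array, and it was a signal of 1.202, 1.242 and 1.177 on arrays 1, 2 and 3. In limma, with Benjamini-Hochberg adjustment over all 2896 genes, 44 of 44 passed the threshold of 0.05, and the largest adjusted p among them was 3.89e-05, that of spt3. Over all genes 99.9% were called above the limit in the same test, so the share among the 44 is near that of any set of genes. The dimmest of the 44 genes on each array had a signal of 3.43, 2.82 and 4.13 on arrays 1, 2 and 3. The brightest probe set of the other yeast had 2.78, 2.62 and 3.65, so on every array each of the 44 genes exceeded all 2601.

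The arrays also carried 38 probe sets of the other yeast whose capitalised symbols fit the same rule, 32 of them with the symbol of 1 of the 44 genes. Their median signal was 0.262. On all 3 arrays 35 of them stayed at or below the limit, 2 passed it on some arrays, and TAF10 passed it on every array. The 38 are part of the 2601 that set the limit, and 95% of that set lie at or below it on each array by construction. These counts are therefore no test of the limit. The fission yeast taf10 had signals of 441, 446 and 439 on its own probe set, and TAF10 had 1.35, 1.38 and 1.35. Over all 2601 probe sets of the other yeast, 0.769% passed the limit on every array. The lowest signal of any of the 44 fission yeast genes on any array was 2.82, against a highest of 1.41 among the 38.

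**Figure D1:**
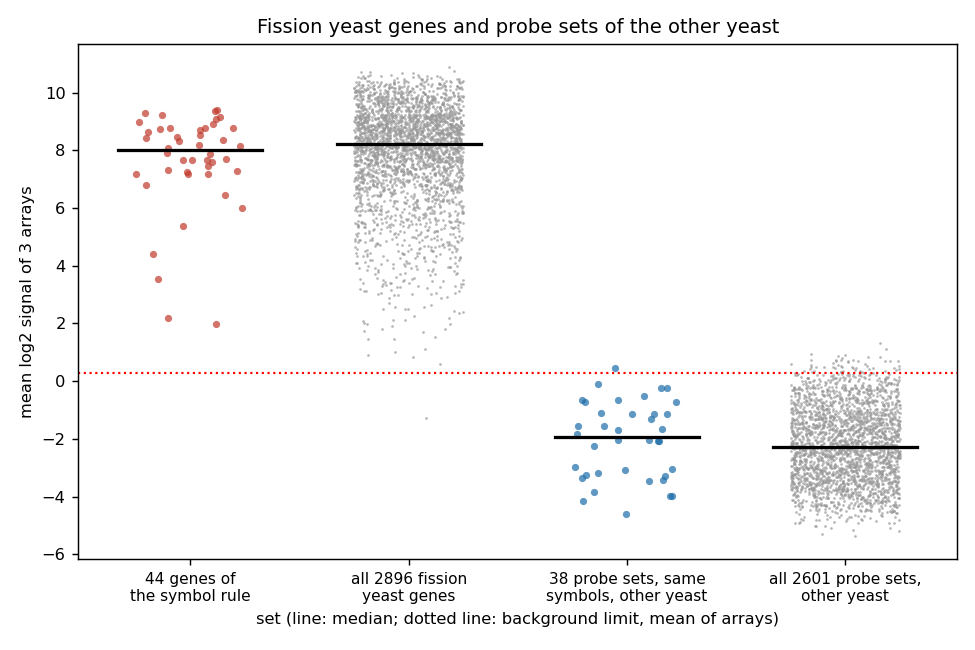
Mean log2 signal of 3 arrays (vertical axis) for the 44 genes, all fission yeast genes, 38 other-yeast probe sets with symbols of the same kind, and all probe sets of the other yeast. Each point is a gene or probe set, horizontal bars are medians and the dotted line is the mean of the background limits. The 44 genes all lie above the line, with a median of 8.001, and of the 38 probe sets only TAF10 lies above it.

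The 44 genes spanned most of the signal range but did not reach its top. Their median log2 signal was 8.001, against 8.22 over all 2896 genes. Of the 44, 5 lay in the top 25% of genes by mean log2 signal, 8 lay in the bottom 25% and 0 lay in the top 10%, against 25%, 25% and 10% of all genes by construction. Of those 8, the 5 genes med15, med13, taf3, spt3 and srb10 lay in the bottom 10%, as 10% of all genes do. The brightness of a probe set also depends on its sequence, so a rank by signal mixes transcript level with probe brightness, and no difference between genes was tested. Ranks below are percentiles of mean log2 signal among the 2896 genes, and ± gives the SD of log2 signal over the arrays (n = 3).

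**Figure D2:**
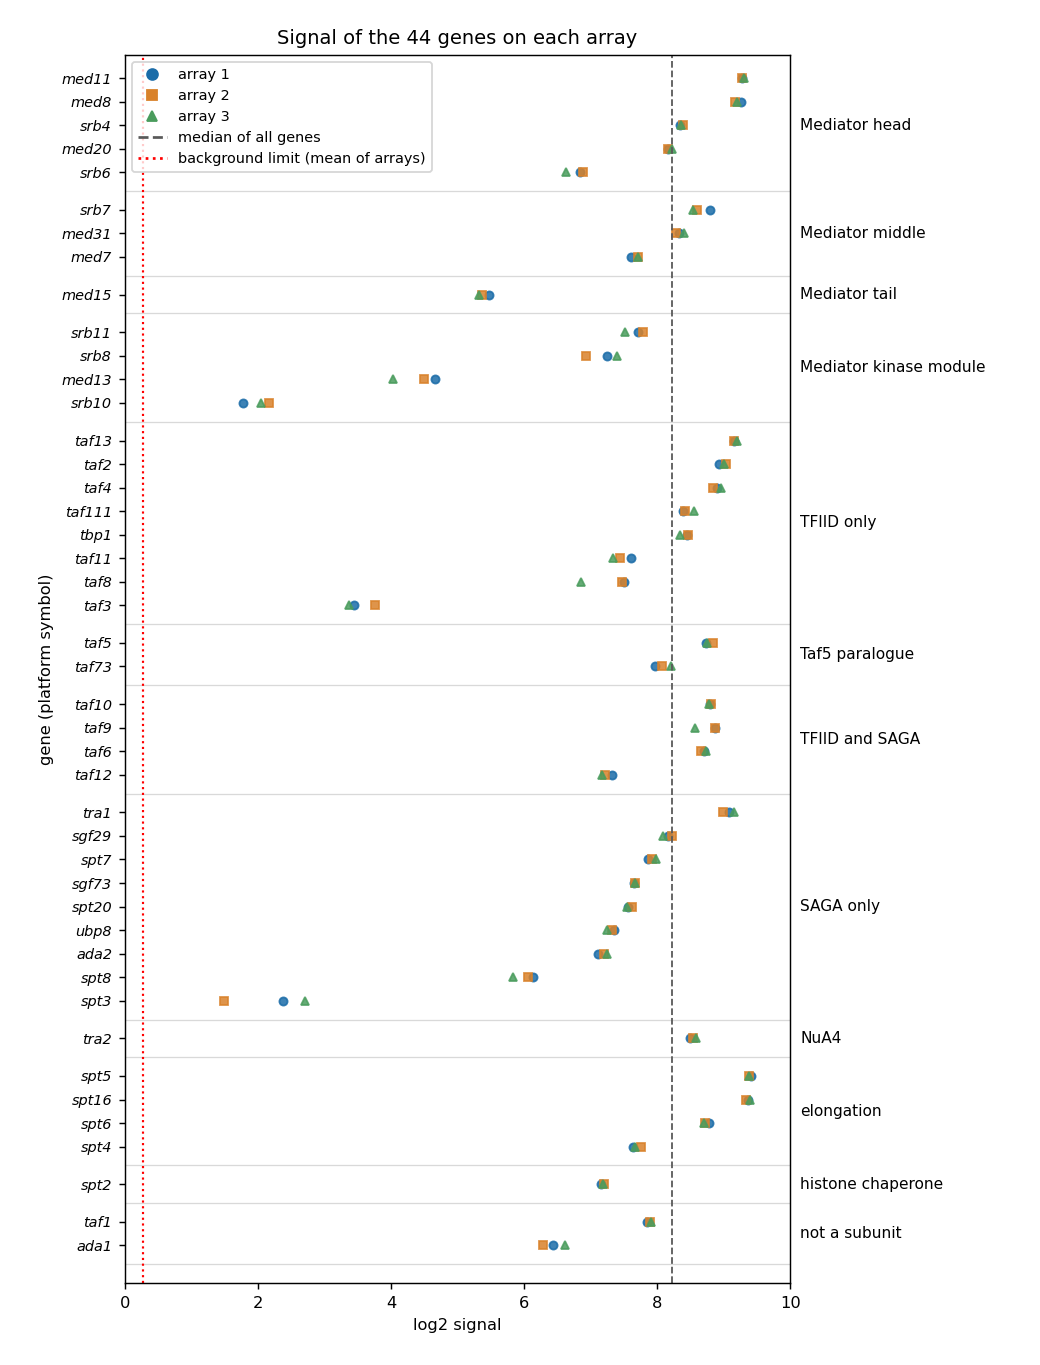
Log2 signal (horizontal axis) of each of the 44 genes on array 1 (circles), array 2 (squares) and array 3 (triangles), grouped by complex or module. The dashed line is the median of all genes and the dotted line the mean background limit. The 4 kinase module genes all lie left of the dashed line, and srb10, spt3, taf3 and med13 lie farthest to the left.

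Among Mediator genes, those of the head and middle modules lay around the median of all genes, and those of the kinase module lay below it. The head genes med11 and med8 were the brightest of Mediator. Signals of med11 were 622, 617 and 629 (log2 9.28 ± 0.014, percentile 80.8). Those of med8 were 613, 578 and 587 (log2 9.21, percentile 78.8). The arrays of both genes were thus close, and both genes stood in the top 25%. The gene srb4, which encodes the central head subunit Med17, gave 324, 336 and 329 (percentile 53.3), and med20 gave 287, 286 and 297 (percentile 48.9). The dimmest head gene was srb6, encoding Med22, at 115, 118 and 98.6 (percentile 20.2), with its lowest value on array 3.

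The middle module was represented by srb7, med31 and med7. The gene srb7, which encodes Med21, gave signals of 442, 386 and 371 (log2 8.64 ± 0.13). Array 1 was the highest, and its SD was larger than that of 92.1% of the genes in the same decile of mean signal. For med31 the signals were 320, 310 and 338, and for med7, which pairs with Med21 in the complex, they were 195, 209 and 208. The tail subunit Med15, an activator target in budding yeast, is encoded by med15. Its signals of 44.2, 41.1 and 39.8 (log2 5.38 ± 0.078, percentile 8.9) put it in the bottom 10%, with little spread between arrays.

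All 4 kinase module genes lay below the median gene, as 50% of all genes do, and their median log2 signal was 5.79. Their members are the kinase Cdk8 (srb10), its partner cyclin C (srb11), and the large subunits Med12 (srb8) and Med13 (med13), which activate the kinase and tether it to Mediator. The signals of srb11 were 209, 220 and 183 (log2 7.67 ± 0.14, percentile 34.7). Those of srb8 were 151, 122 and 168 (log2 7.19 ± 0.23, percentile 25.8), lowest on array 2. Those of med13 were 25.3, 22.6 and 16.3 (log2 4.40 ± 0.33, percentile 4.7), lowest on array 3.

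The kinase gene srb10 was the dimmest of the 44 genes, at 3.43, 4.49 and 4.13 (log2 1.997 ± 0.20, percentile 0.6). Its log2 signal exceeded the limit by 1.73 (95% confidence interval 1.56 to 1.90, limma adjusted p = 5.34e-08). The cyclin and kinase of the same pair thus stood at percentiles 34.7 and 0.6. Each of the 4 genes had a larger SD than the median gene of its own decile of signal, while 49.9% of all genes had. The same held for 7 of the 8 genes of TFIID alone, the 2 Taf5 paralogues and 4 of the 9 genes of SAGA alone. The lowest decile, which holds srb10 and med13, starts at a log2 signal of -1.28 and reaches at least to med15 at 5.38. Within that wide range the SD of srb10 stood at percentile 68.2 and that of med13 at 89.6. The other 9 Mediator genes had a median log2 signal of 8.33, with 5 above and 4 below the median gene.

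The genes of TFIID alone lay on both sides of the median gene, and 1 of them, taf3, was far below it. The gene of the TATA-binding protein, tbp1, gave signals of 350, 353 and 324 (log2 8.42 ± 0.067, percentile 54.8). For taf111, which encodes the largest TAF and scaffold of the complex, the signals were 336, 342 and 375 (percentile 56.0). The gene taf2, whose product contacts the initiator region in other eukaryotes, gave 487, 524 and 511 (percentile 72.0). Of the 8 genes of TFIID alone, 5 lay above the median gene and 3 below it, where 50% of all genes lie.

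Many TAFs bind each other in pairs through histone folds. Taf11 pairs with Taf13: taf11 gave signals of 195, 174 and 161 (percentile 30.6), while taf13, the brightest TAF gene, gave 568, 572 and 590 (log2 9.17, percentile 77.7). Taf4 pairs with Taf12: taf4 gave 479, 457 and 498 (percentile 69.5), and taf12 gave 159, 149 and 143 (percentile 26.6). Taf6 pairs with Taf9: taf6 gave 415, 402 and 427 (percentile 63.1), and taf9 gave 467, 466 and 378 (percentile 65.5). Partner genes thus stood close together in rank for Taf6 and Taf9 and far apart for the other pairs, on different probes.

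Taf10 can pair with Taf3 or Taf8, and these 3 genes stood far apart. The gene taf10 was among the steadiest, with an SD of 0.013 around a log2 signal of 8.79 (percentile 66.2). The gene taf8 gave signals of 181, 178 and 116 (log2 7.28 ± 0.37, percentile 27.3). Arrays 1 and 2 were close for taf8, and array 3 was lower than their mean by 0.64 on the log2 scale. The gene taf3 was the dimmest TAF gene, at 10.9, 13.5 and 10.3 (log2 3.52 ± 0.20, percentile 2.5). It lay above the limit by 3.25 (95% confidence interval 3.10 to 3.41, limma adjusted p = 3.95e-10). The Taf5 paralogues, which carry WD repeats, were taf5 with signals of 425, 457 and 429 (percentile 65.7) and taf73 with 249, 269 and 296 (percentile 45.1).

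Of the 9 genes of SAGA alone, 8 lay below the median gene, where 50% of all genes lie. The exception was tra1, whose product is the scaffold that activators bind. Its signals were 538, 508 and 569 (log2 9.07 ± 0.081, percentile 74.4). The paralogue tra2, the corresponding scaffold of NuA4, gave 360, 370 and 383 (percentile 58.1). Core subunit genes were spt7, at 233, 242 and 252 (percentile 40.8), and spt20, at 189, 197 and 187 (percentile 32.7).

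The genes of the enzymatic modules of SAGA lay at lower ranks than tra1. In the acetyltransferase module, ada2 gave signals of 139, 147 and 151 (percentile 25.7), and sgf29, a reader of histone H3 methylation, gave 287, 299 and 272 (percentile 48.2). In the deubiquitylating module, the protease gene ubp8 gave 162, 160 and 152 (percentile 27.9). The gene sgf73, which anchors that module, gave 202, 202 and 204 (percentile 34.6), and its SD of 0.0086 was the smallest of the 44.

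The genes spt3 and spt8, whose products bring the TATA-binding protein to SAGA, were the dimmest of SAGA. Signals of spt8 were 70.1, 66.6 and 56.9 (log2 6.01 ± 0.16, percentile 13.2). Those of spt3 were 5.21, 2.82 and 6.53 (log2 2.19 ± 0.63, percentile 0.7). The 3 arrays of spt3 lay far apart, with array 2 the lowest. Its log2 signal was above the limit by 1.92 (95% confidence interval 1.43 to 2.42, limma adjusted p = 3.89e-05), and on array 2 its signal of 2.82 was just above the brightest probe set of the other yeast, at 2.62.

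The elongation genes spt5 and spt16 held the highest signals of the 44, while spt6 and spt4 ranked lower. The gene spt5, which forms a clamp on the polymerase with Spt4, gave 680, 665 and 663 (log2 9.39 ± 0.020, percentile 82.5). The gene spt16, of the histone chaperone FACT, gave 657, 643 and 674 (percentile 81.9). Both lay in the top 25%, and their order changed on array 3, where spt16 was the higher. The histone chaperone gene spt6 gave 440, 422 and 415 (percentile 64.5). The gene spt4 gave 199, 215 and 202 (percentile 35.2), and spt2 gave 143, 148 and 146 (percentile 25.7). Of the genes outside the complexes, ada1 gave 86.8, 77.8 and 97.9 (percentile 16.5), and the platform's taf1 gave 231, 238 and 241 (percentile 39.9).

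Lists of complex subunits matched by current symbol or synonym added 13 genes that the symbol rule missed. Their median log2 signal was 8.05, with 4 above the median gene and 9 below it, where 50% of all genes lie. Of the 13, 0 were in the top 25% and 5 in the bottom 25%, against 25% of all genes in each. All 13 were above background in the limma test, as were 99.9% of all genes. In Mediator the added genes included med14, the backbone subunit, at signals of 425, 440 and 421 (percentile 64.9), and pmc3, encoding Med27, at 262, 257 and 274 (percentile 44.1). The middle genes med1 and med10 gave 364, 362 and 339 and 63.3, 76.8 and 93.1. For med10 the arrays differed by 0.56 on the log2 scale between the highest and the lowest. The head gene rox3, encoding Med19, gave 105, 106 and 110 (percentile 19.6).

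With these genes, SAGA had 14 of 20 measured genes below the median gene, 5 in the bottom 25% and 0 in the top 25%, and a median log2 signal of 7.79. This list holds ada1 as well as hfi1. It also counts taf5 and taf73, whose division was not settled, and the TFIID list counts taf5 but not taf73. TFIID had 9 of 14 above the median gene and a median of 8.58. The added SAGA genes numbered 4 and lay outside the naming rule. The acetyltransferase gene gcn5 gave 128, 119 and 129 (percentile 22.9), and ngg1, of the same module, gave 428, 448 and 447 (percentile 66.1). The core gene hfi1 gave 82.9, 77.0 and 80.3 (percentile 15.7), and sus1, of the deubiquitylating module, gave 285, 289 and 304 (percentile 49.2). Of these 4 genes, ngg1 lay above the median gene and the others below it. All 20 and all 14 were above background, as were 99.9% of all genes.

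Other lists of the transcription machinery gave the setting for these values. The general factors TFIIA, TFIIE and TFIIF, which assemble with the polymerase at promoters, had 5 of 6 measured genes above the median gene, and the TFIIB gene of that list was not analysed here. They ran from toa1 at 571, 541 and 580 and tfg3 at 550, 546 and 550 to tfa2 at 309, 278 and 310 and tfg1 at 294, 300 and 274. The TFIIH list, the factor that opens promoter DNA, had 8 of 10 below the median gene. Its extremes were tfb2 at 464, 482 and 460 and ssl1 at 330, 314 and 325, and mcs6 at 116, 113 and 104 and tfb4 at 38.3, 35.2 and 40.8.

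The elongation list had 8 of 10 above the median gene and 4 of 10 in the top 25%. Its lowest genes were spt4 and pob3, the FACT partner of spt16, the second of these at 245, 225 and 239. The NuA4 list had 9 of 12 below the median gene, from yaf9 at 780, 774 and 767 and tra2 to epl1 at 66.6, 63.5 and 62.5 and png1 at 62.4, 63.1 and 63.5. That list was matched by symbol. Whether its genes eaf1 and png2 (percentiles 32.8 and 20.6) belong to NuA4 in fission yeast was not settled here. The list for regulators of the TATA-binding protein held mot1, which removes the protein from DNA, at 605, 616 and 608, and bur6 at 232, 205 and 228. It also held brf1, which belongs to the RNA polymerase III factor TFIIIB, at 159, 152 and 159. Every measured gene of these 5 lists was above background, as were 99.9% of all genes.

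**Figure D3:**
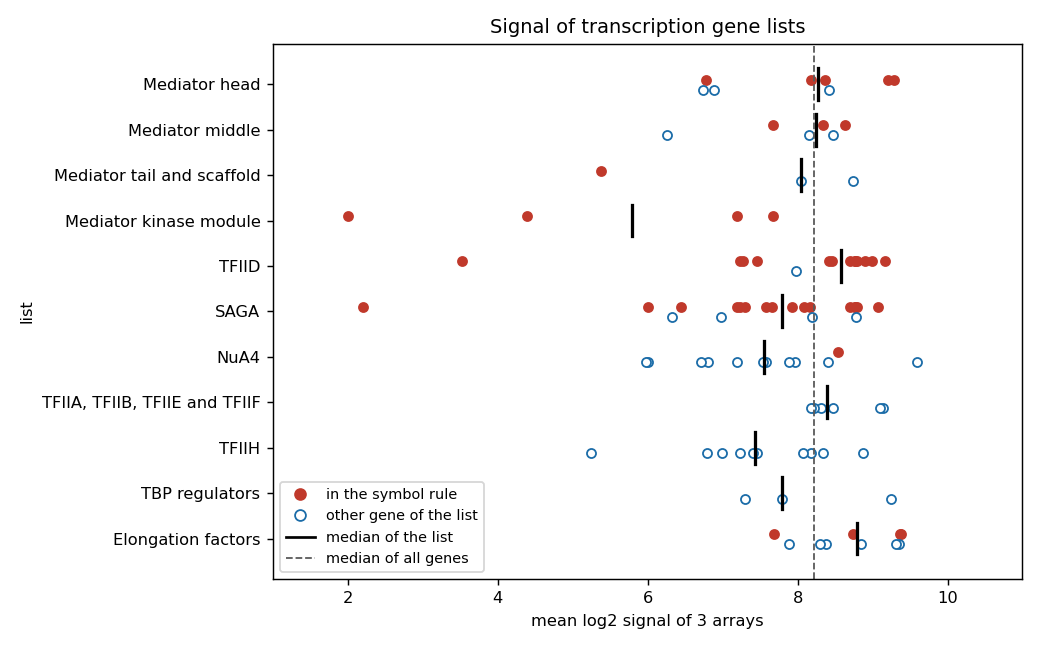
Mean log2 signal of 3 arrays (horizontal axis) for genes of 11 transcription lists, 1 row per list (the row that names TFIIB holds no TFIIB gene). Filled points are genes of the symbol rule, open points other genes of the list, black bars list medians and the dashed line the median of all genes. The kinase module has the lowest list median, 5.79, and the elongation factors the highest, 8.79.

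Most of the 44 genes gave nearly the same value on each array, and a few did not. Pearson's r over the 44 genes was 0.9949 for arrays 1 and 2, 0.9935 for 1 and 3 and 0.9886 for 2 and 3, a description across genes that share the arrays. The median SD of the 44 was 0.062, against 0.061 over all genes, and 23 of the 44 had an SD above the median of their own decile of signal, against 49.9% of all genes. The highest and the lowest array differed by over 0.5 on the log2 scale for 3 of the 44, against 2.94% of all genes. These 3 were spt3 with a difference of 1.21, taf8 with 0.65 and med13 with 0.64. This list depends on the log2 scale at low signal. With a pseudocount added to the signals, the differences were 0.26 for spt3, 0.584 for taf8 and 0.355 for med13. Of the 44 genes, only taf8 then stayed over 0.5.

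**Figure D4:**
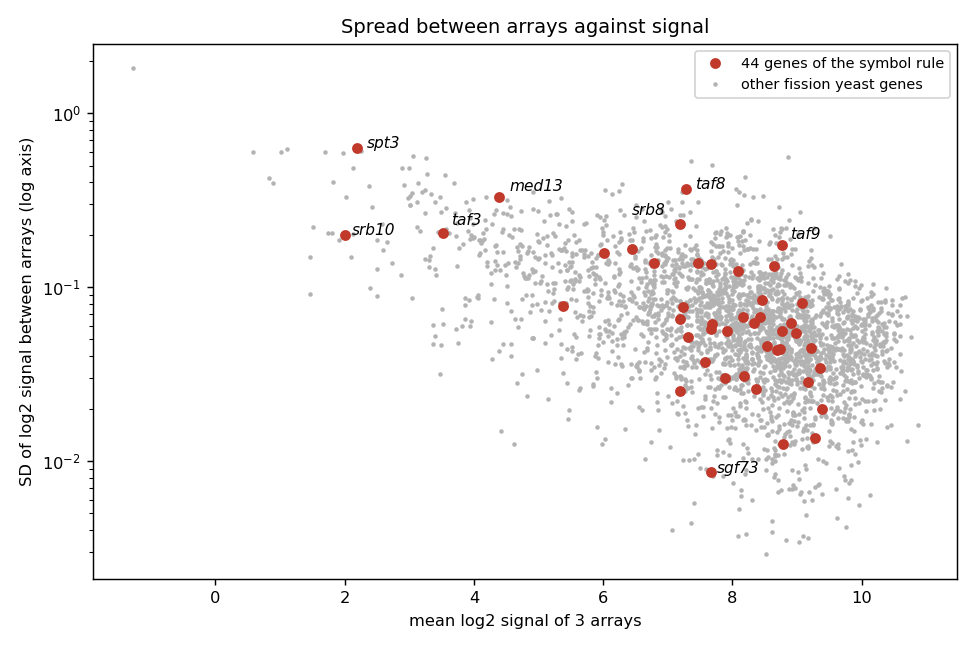
SD of log2 signal between 3 arrays (vertical log axis) against mean log2 signal (horizontal axis), with the 44 genes as large points and all other fission yeast genes as small grey points. SDs rise toward low signal. The points of spt3 (0.63) and taf8 (0.37) lie at the upper edge of the genes of like signal, and sgf73 (0.0086) lies near the lower edge.

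The SDs of spt3 and taf8 both exceeded those of 99.7% of the genes in their own decile of signal. For spt3 this is the lowest decile, whose genes span a wide range of signal and include many brighter than spt3. The dimmer srb10 had a smaller SD than spt3, 0.20 against 0.63. The SD of taf9 exceeded 95.9% and that of srb8 95.5% of the genes of like signal. For taf9, as for taf8, array 3 was the low one, by 0.30 against the mean of the other two.

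Array 3 stood apart more often than the others, among these genes and among all genes. It was the array farthest from the other two for 20 of the 44 genes, against 40.7% of all genes. It was lower than the mean of the other two by over 0.25 for 4 of the 44, namely taf8, med13, taf9 and spt8, against 5.59% of all genes. It was higher by the same margin for 3 of the 44, namely spt3, srb8 and ada1, against 1.73% of all genes. Arrays 1 and 2 deviated downward for 1 and 2 of the 44 (1.62% and 2.62% of all genes) and upward for 3 and 3 (2.73% and 3.73%). The median deviation of array 3 was 0.001 over the 44 genes and 0.01 over all genes, on arrays scaled to the same trimmed mean.

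**Figure D5:**
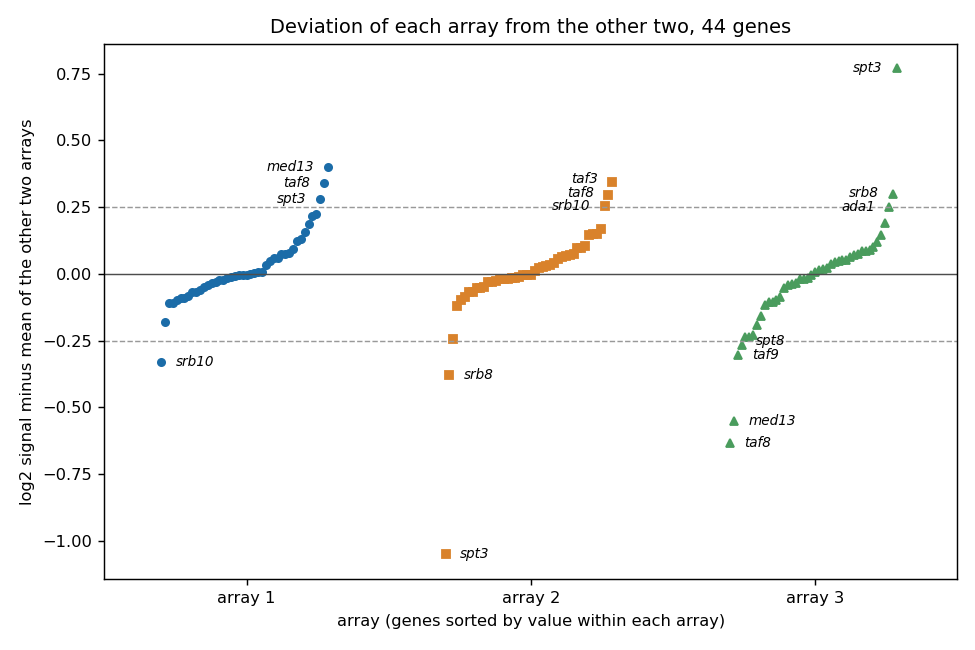
Deviation of each array, in log2 signal, from the mean of the other two (vertical axis) for the 44 genes, sorted by value within each array. Dashed lines mark 0.25 in either direction, and genes beyond them are named. The widest deviations are those of spt3 on array 2 (-1.05) and array 3 (0.77) and of taf8 on array 3 (-0.64).

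The order of the 44 genes by signal was firm at the low end and loose in the middle. Of the 43 pairs of neighbours in the order of mean log2 signal, 19 kept their order on all 3 arrays and 13 were apart by more than the sum of their SDs. Along the 8 genes spt2, srb6, ada1, spt8, med15, med13, taf3 and spt3, each was apart from the one after it by both measures, whereas spt3 and srb10 at the bottom were not. At the top, spt5 and spt16 were not separated either. No 2 of the 44 genes were neighbouring protein-coding genes in the fission yeast gene table.

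Markers of other cell states were read on the same arrays. The 7 meiotic markers had a median log2 signal of 4.34, with 6 in the bottom 10%. Their brightest were spo6 at 268, 288 and 262 and meu6 at 40.7, 39.8 and 42.0, and their dimmest were rem1 at 6.12, 3.61 and 2.74 and mei3 at 3.38, 1.42 and 2.11. The 3 markers of plus cells were map3, map4 and map2, with mean log2 signals of 8.68, 7.05 and 3.86. Of the 7 markers of minus cells, mam2 and mam3 were the brightest, at 8.42 and 8.23, and mfm1 and mfm2 the dimmest, at 3.25 and 2.14. Between them lay mam1, mfm3 and sxa2, at 8.01, 7.33 and 6.46. The median of the minus list was 7.33 and that of the plus list 7.05, on different probes, although the cells were h+. What lies behind the signals of the minus markers was not tested. All of these markers were above background, as were 99.9% of all genes. The brightest probe set of the other yeast, at 2.62 on array 2 and 3.65 on array 3, exceeded mei3 on these arrays and rem1 on array 3. The part of the markers in the values of the 44 genes was not tested.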

How the data were processed

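The deposited values were linear signal intensities, 1 for each of 10928 probe sets on each of 3 arrays, which the authors made and background-corrected with MAS5, per the labels. The scaling target and genome build are not given in the sources used here. On every array the mean signal, trimmed by 2% at each end, was 150.0, so the intensities were turned into log2 with no further normalization and no pseudocount.

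Probe sets were named from the platform annotation and updated through the gene identifier with the RefSeq table of assembly ASM294v3. This gave 2914 fission yeast probe sets of 2896 genes, averaged per gene on the log2 scale. The 2601 single-gene probe sets with capitalised symbols outside that table were taken as those of another yeast. Log2 signal minus the background limit was tested against 0 with limma 3.58.1 in R 4.3.3 (lmFit, eBayes, two-sided), which shares variance across genes, and dim genes, which vary more, can get p-values that are too low. Promoter motifs were not analysed here. The arrays numbered 3, which limits the precision, and p-values cover only the spread between them.

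All 44 genes are named. Of each list, the 2 highest and the 2 lowest genes are named, with exceptions stated. The genes and lists were chosen with earlier results of these data known. Alternatives were quantile normalization, median centring, a pseudocount, 1 array fewer, other limits, the brightest probe set per gene, no shared probe sets, a filter on dim genes, stricter ranks and other definitions of the gene set.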

Additional observations from a re-analysis of the deposited data

How the results depend on the processing

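All 44 genes were above background with each pseudocount, normalization, probe set rule, background limit and array left out. Without the dimmest 10% of genes, 39 were tested and 39 called, which that filter fixes by leaving only bright genes. The calls of the single genes kept their direction and side of the threshold in all 352 combinations of gene and alternative, with adjusted p of at most 0.0014 (limma). Without array 1, limma gave every gene 1 common variance, so the p-values of that fit say little about single genes. The median log2 signal was 8.09 with a pseudocount of 16 and 8.12 without ada1 and taf1, a definition chosen after seeing the data. With the 50 genes of the complex lists, 3 were in the top 25% and 13 in the bottom 25%; this set lacks the bright spt5 and spt16, adds 13 genes and still holds ada1, which is among the 13 in the bottom 25%. With stricter ranks, 0 were in the top 10% and 5 in the bottom 10%. With 1 array left out, the median SD ran from 0.0434 without array 3 to 0.0626 without array 2. The median difference between the highest and lowest array was 0.123. With a pseudocount of 16, the difference was 0.26 for spt3 and 0.355 for med13, both under 0.5. That of taf8 stayed over 0.5, at 0.584. No paired analysis was possible because the arrays form 1 group. The number of arrays limits what could be detected, and for srb10 and spt3 the signal lies near background.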
